A study of Mus musculus with 8 samples.

Results

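Neurotrophins and their receptors, with the neuronal guidance gene *Slitrk6*, were followed in sorted cells of the neonatal mouse cochlea. The 7 genes are *Ntf3* and *Bdnf* (secreted neurotrophins), *Ntrk2* and *Ntrk3* (the Trk receptors TrkB and TrkC), *Ngfr* (the neurotrophin receptor p75NTR), *Sort1* (the proneurotrophin co-receptor sortilin) and *Slitrk6*. They were picked by gene symbol from the 36536 Ensembl genes counted. The libraries came from cochleas of *Lfng*-EGFP mice, B6;FVB animals with the BAC transgene HM340Gsat, at postnatal day 1 (P1) or 6 (P6). The GFP+ groups hold the brightest fluorescent cells, and the GFP- groups the cells without fluorescence from the same transgenic cochleas, with 2 libraries in each of the 4 groups. By the study's methods the transgene marks most supporting cell types, but not the inner pillar cells, and dimly fluorescent cells were collected in neither fraction. At P1 the cochlear duct was peeled off the modiolus and freed of the lateral wall. At P6 it was cut free and the lateral wall was removed only in part. Both fractions were sorted from this tissue, so age and dissection cannot be told apart in either. The labels do not say that replicates were separate pools of animals, so p-values measure the spread between these libraries.

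Neurotrophins are growth factors that keep sensory neurons alive and guide their fibres. NT-3, the product of *Ntf3*, acts mainly through TrkC, and BDNF mainly through TrkB. p75NTR binds all neurotrophins and, with sortilin, their uncleaved precursors. In the cochlea, NT-3 and BDNF are made in the sensory epithelium and their Trk receptors are carried by spiral ganglion neurons, while *Slitrk6* encodes a leucine-rich transmembrane protein whose loss reduces the innervation of the inner ear.

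Libraries held 17769024 to 67695039 counts on genes. Levels are given as CPM, counts scaled to the same total of gene counts in every library, and as RPKM where genes are compared with each other, since RPKM also divides by the length of a gene's exons. The GFP+ label was borne out by 8 supporting cell markers (*Lfng*, *Sox2*, *Prox1*, *Hes5*, *Fgfr3*, *Cdkn1b*, *Jag1*, *Lgr5*), all higher in GFP+ than in GFP- cells at both ages. Their summed level was 5936 to 9407 CPM in GFP+ and 264.3 to 398.0 CPM in GFP- libraries. *Lfng* is no independent check, since its regulatory sequence drives the sort marker. Without it the GFP+ sums were 3571 to 6586 CPM. Of 10 hair cell markers, 8 at P1 and 7 at P6 were also higher in GFP+ libraries. P6 GFP+ replicate 2 stood apart from replicate 1, with 2678 against 774 CPM over 7 mesenchyme markers and 174 against 45.4 CPM over 4 endothelium markers. P1 GFP- replicate 2 held 876 CPM over 10 spiral ganglion neuron markers against 345 CPM in replicate 1.

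**Figure D1:**
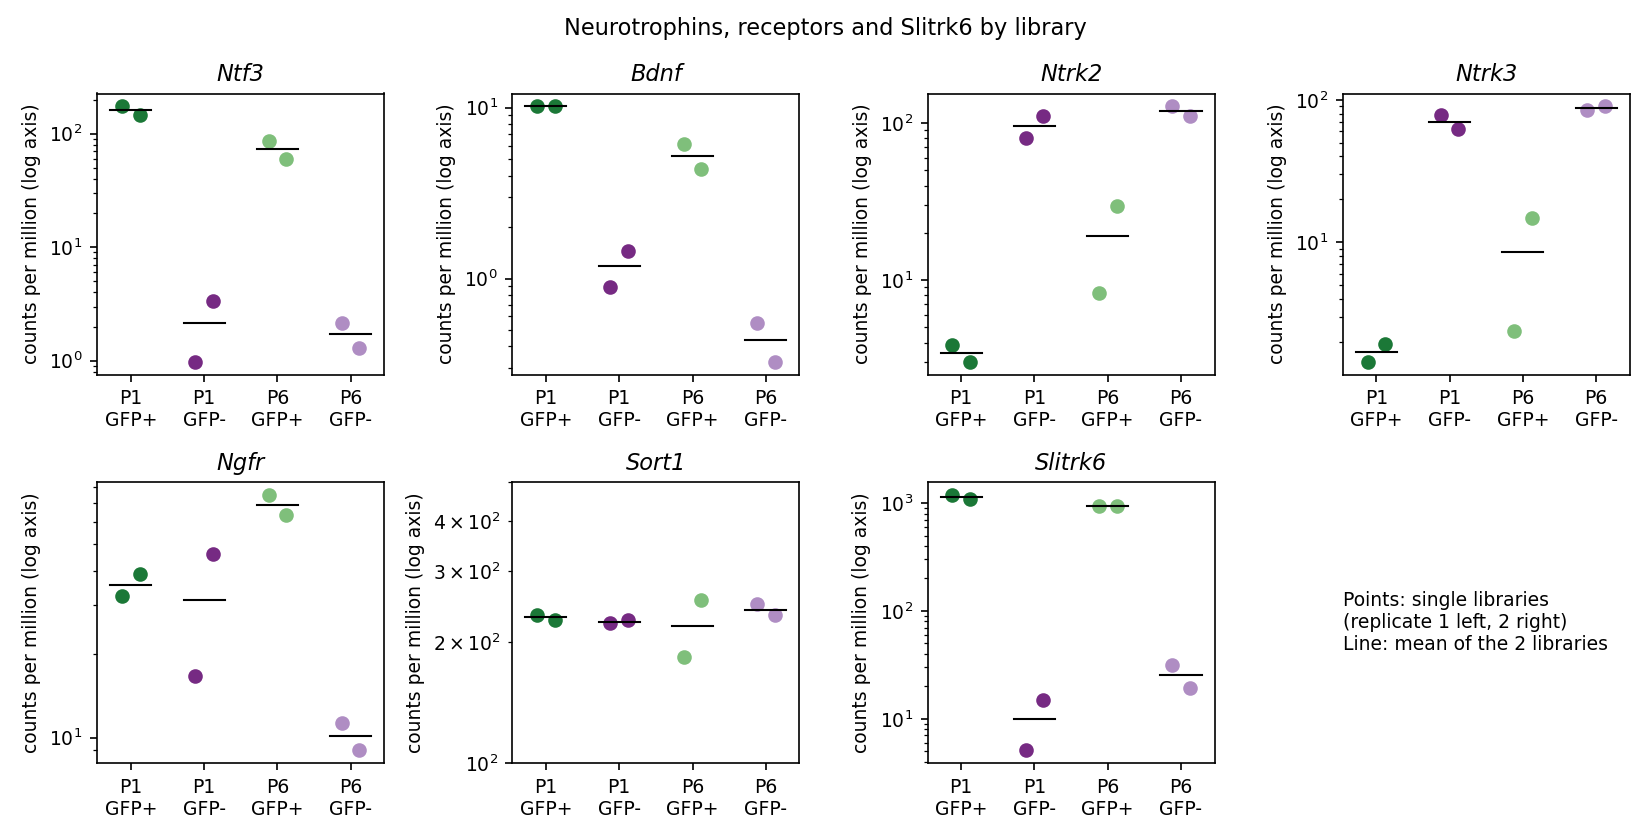
Level of each gene in each library, in CPM on log axes, by group. Points are single libraries and lines are the means of the 2 libraries of a group. *Ntf3*, *Bdnf* and *Slitrk6* were higher in every GFP+ library than in any GFP- library, *Ntrk2* and *Ntrk3* lower in every GFP+ library than in any GFP- library, and *Sort1* lay between 184 and 255 CPM throughout.

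At P1, *Ntf3*, *Bdnf* and *Slitrk6* were higher in GFP+ cells and *Ntrk2* and *Ntrk3* were lower, at an adjusted p below 0.01 in edgeR's quasi-likelihood test (Benjamini-Hochberg over all genes tested). At P6, *Ntf3*, *Bdnf*, *Slitrk6* and *Ngfr* were higher. Thus 5 of the 7 genes were called at P1, where 37.3% of the 18682 genes tested were called, and 4 at P6, where 12.9% of 18294 genes were. *Sort1* was called in neither comparison. The replicates of the fractions did not overlap for 6 members at each age, all but *Ngfr* at P1 and all but *Sort1* at P6, as for 79.3% and 73.4% of all genes. No member was called between the ages within a fraction. Folds and tests used TMM scaling, and errors are standard errors (SE) of the log2 fold change.

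Both ligands were carried by the GFP+ fraction. *Ntf3* (ENSMUSG00000049107, chr6:126051431-126116762, minus strand, NCBIM37) measured 174 and 147 CPM in the P1 GFP+ libraries and 0.976 and 3.36 CPM in the P1 GFP- libraries. At P6 it measured 86.6 and 59.3 CPM in GFP+ cells against 2.14 and 1.29 CPM in GFP- cells. The fractions stood far apart at each age, and the GFP- levels rest on 37 to 212 counts. The log2 fold change of GFP+ over GFP- cells was 6.23 (SE 0.48, adjusted p = 1.6e-04) at P1 and 5.41 (SE 0.37, adjusted p = 9.6e-04) at P6, or 75.2-fold and 42.5-fold. The P1 value was 5.66 without P1 GFP- replicate 1 and 7.45 without P1 GFP- replicate 2.

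*Bdnf* (ENSMUSG00000048482, chr2:109514857-109567204, plus strand) was much scarcer than *Ntf3* per length. It measured 10.2 CPM in both P1 GFP+ libraries and 0.897 and 1.46 CPM in P1 GFP- cells. At P6 the GFP+ libraries had 6.13 and 4.35 CPM and the GFP- libraries 0.551 and 0.325 CPM, which rest on 34 and 22 counts. Again no GFP- library reached a GFP+ library. The difference was 9.12-fold at P1 (log2 3.19, SE 0.28, adjusted p = 2.6e-04) and 11.8-fold at P6 (log2 3.57, SE 0.43, adjusted p = 0.0041). *Bdnf* is a known hair cell transcript, and of 10 hair cell markers 8 at P1 and 7 at P6 were also higher in GFP+ cells. Summed over all 10, they came to 787 and 915 CPM in P1 GFP+ against 479 and 420 CPM in P1 GFP- cells. At P6 the sums were 478 and 547 CPM against 352 and 392 CPM. *Myo6*, the largest part, measured 442 and 475.5 against 406 and 348.5 CPM at P1. At P6 it measured 250 and 325 against 312 and 340 CPM. Without *Myo6* the sums were 344 and 439 against 73.1 and 72.0 CPM at P1, and 228 and 222 against 40.0 and 52.3 CPM at P6. *Slc17a8* was alike in the P1 fractions, at 4.43 and 4.58 against 4.51 and 5.28 CPM. The hair cell transcription factor gene *Pou4f3* measured 12.1 and 15.9 CPM in P1 GFP+ and 0.950 and 1.46 CPM in P1 GFP- cells. The part of hair cell RNA in the levels of *Bdnf* or *Ntf3* was not tested. In bulk RNA, fewer cells of a type and less RNA per cell cannot be told apart.

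Per length, *Ntf3* exceeded *Bdnf* in every library. The ratio of their RPKM was 70.1 and 59.4 in P1 GFP+, 57.9 and 55.9 in P6 GFP+, 4.46 and 9.45 in P1 GFP- and 15.9 and 16.2 in P6 GFP- libraries. The excess was thus larger in the GFP+ libraries, none of which overlapped a GFP- library. The exon length of *Bdnf*, 5850 bases, joins the alternative first exons of 10 annotated transcripts, and with the median length of coding transcripts in its place the GFP+ ratios ranged from 39.0 to 49.0.

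*Slitrk6* (ENSMUSG00000045871, chr14:111147800-111154371, minus strand) had the highest level per length of the 7 genes in GFP+ cells. It measured 1194 and 1089 CPM in the P1 GFP+ libraries and 5.09 and 15.0 CPM in P1 GFP- cells. At P6 the GFP+ libraries had 942 and 932 CPM and the GFP- libraries 31.4 and 19.3 CPM. GFP+ levels therefore differed little between replicates, whereas the P1 GFP- replicates were far apart. The excess in GFP+ cells was 120.4-fold at P1 (log2 6.91, SE 0.54, adjusted p = 1.7e-04) and 36.7-fold at P6 (log2 5.20, SE 0.33, adjusted p = 8.9e-04). The P1 log2 value was 6.33 without P1 GFP- replicate 1 and 7.90 without P1 GFP- replicate 2. Supporting cell markers, at 264.3 CPM in replicate 1 and 398.0 CPM in replicate 2 of these GFP- libraries, were higher in the same replicate as *Ntf3* and *Slitrk6*, and their part in these levels was not tested. *Lfng*, the gene whose regulatory sequence drives the sort marker, was high in the same libraries, and the RPKM of *Slitrk6* was 0.135 to 0.261 of that of *Lfng* in the GFP+ and 0.159 to 0.369 in the GFP- libraries.

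*Slitrk6* has 2 exons, and its 2520 coding bases lie within 1 of them. The probe the study designed to see the transcript in tissue lies in this coding exon as well, so it and the counts address the same single annotated transcript. With it the study reported signal in supporting cells at P1 and no detectable signal at P6. The P6 GFP+ libraries had 942 and 932 CPM, and the reason for this difference was not tested. The gene-specific parts of its primers, 5′ to 3′ and all in lower case, matched NCBIM37 once each on the chromosome, the forward one at chr14:111151303-111151321 on the gene's strand and the reverse one at chr14:111150643-111150661 on the other strand.
Forward: atcagtgtgccaccatcac
Reverse: ccagcaaagatcctgatgg

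The promoters of *Ntf3* and *Slitrk6* are shown because these genes had the largest differences between the fractions. RefSeq (GRCm38.p6) gave promoters for 5 of the 7 genes (12 in all, with *Ntrk3* and *Sort1* not in the table). The 250 bases before each start are printed 5′ to 3′ on the minus strand, the gene's own, with 2 starts for *Ntf3* at chr6:126166745-126166994 and chr6:126164961-126165210 and 1 for *Slitrk6* at chr14:110755150-110755399. Capitals mark TGGGAA on either strand (TTCCCA on the other), the core bound by RBPJ, through which Notch acts on DNA, and the E-box CANNTG, bound by basic helix-loop-helix factors.
Ntf3 start 1: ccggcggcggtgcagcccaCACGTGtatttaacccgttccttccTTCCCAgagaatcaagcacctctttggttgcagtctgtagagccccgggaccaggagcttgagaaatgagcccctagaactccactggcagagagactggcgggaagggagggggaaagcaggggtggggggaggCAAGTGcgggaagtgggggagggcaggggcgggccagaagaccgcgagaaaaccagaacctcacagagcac
Ntf3 start 2: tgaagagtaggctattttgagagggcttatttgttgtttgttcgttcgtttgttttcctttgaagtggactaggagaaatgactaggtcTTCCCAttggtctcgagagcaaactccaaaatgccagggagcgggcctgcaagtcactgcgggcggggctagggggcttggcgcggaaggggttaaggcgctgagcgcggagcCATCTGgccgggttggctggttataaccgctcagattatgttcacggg
Slitrk6 start 1: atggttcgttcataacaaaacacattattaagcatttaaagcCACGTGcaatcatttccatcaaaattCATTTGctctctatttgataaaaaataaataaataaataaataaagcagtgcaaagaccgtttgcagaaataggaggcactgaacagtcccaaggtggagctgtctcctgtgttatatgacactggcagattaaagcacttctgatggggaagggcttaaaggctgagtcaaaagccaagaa
Both *Ntf3* promoters held 1 TGGGAA, a motif with any match in 21.6% of 32841 promoters of the same length, and the *Slitrk6* promoter held none. E-boxes, present in 66.2% of promoters, occurred in all 3, and no capitals of the different motifs overlapped. ACAANG, a SOX motif in 36.3% of promoters, and TGACG, the short form of the CREB site in 17.8%, occurred in none of the 3. These matches describe letters and not bound sites.

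The Trk receptors showed the opposite distribution. *Ntrk2* (ENSMUSG00000055254, chr13:58907957-59235331, plus strand) measured 3.86 and 3.01 CPM in P1 GFP+ libraries and 80.7 and 111 CPM in P1 GFP- libraries. At P6 it measured 8.27 and 29.7 CPM in GFP+ cells and 128 and 110.3 CPM in GFP- cells. The fractions did not overlap at either age, but the 2 P6 GFP+ libraries differed from each other by more than 3-fold. The level in GFP+ cells was 25.4-fold lower at P1 (log2 -4.67, SE 0.22, adjusted p = 3.0e-05), and at P6 the log2 difference was -2.66 (SE 0.56, adjusted p = 0.0178), short of the threshold.

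*Ntrk3* (ENSMUSG00000059146, chr7:85337248-85723294, minus strand) measured 1.44 and 1.93 CPM in P1 GFP+ and 78.0 and 62.3 CPM in P1 GFP- libraries. At P6 it measured 2.36 and 14.7 CPM in GFP+ cells and 84.5 and 90.2 CPM in GFP- cells. The pattern was that of *Ntrk2*, with P6 GFP+ replicate 2 again high. The fold change was log2 -5.31 (SE 0.20, adjusted p = 1.6e-05) at P1 and -3.34 (SE 0.74, adjusted p = 0.0205) at P6. By exon length, *Ntrk3* exceeded *Ntrk2* in all 4 GFP- libraries, with a ratio of *Ntrk2* to *Ntrk3* RPKM of 0.359 to 0.617.

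The calls of both receptors at P6 depended on the libraries and the fit. Without P6 GFP+ replicate 1 the log2 differences were -1.98 for *Ntrk2* and -2.55 for *Ntrk3*, and without replicate 2 they were -3.83 and -5.19. Both passed the threshold in each of these fits, in which the remaining GFP+ library was assumed to vary like the GFP- pair, and with DESeq2. Mesenchyme markers in P6 GFP+ replicate 2 were 2678 CPM, between the 774 CPM of replicate 1 and the 17132 CPM or more of P6 GFP- cells, and so lay *Ntrk2* and *Ntrk3*. Over the 10 Schwann and satellite glia markers the same 2 libraries had 2605 and 1299 CPM, and over the spiral ganglion neuron markers 186 and 141 CPM. The part of these cells in the receptor levels was not tested. Between the P1 GFP- replicates the neuron markers were 345 and 876 CPM while *Ntrk2* was 80.7 and 111 CPM and *Ntrk3* was 78.0 and 62.3 CPM. The annotation holds Trk transcripts with long and short coding parts, from 1365 to 2463 bases for *Ntrk2* and of 1836 and 2475 bases for *Ntrk3*, and counts per gene do not separate full-length from truncated receptors.

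**Figure D2:**
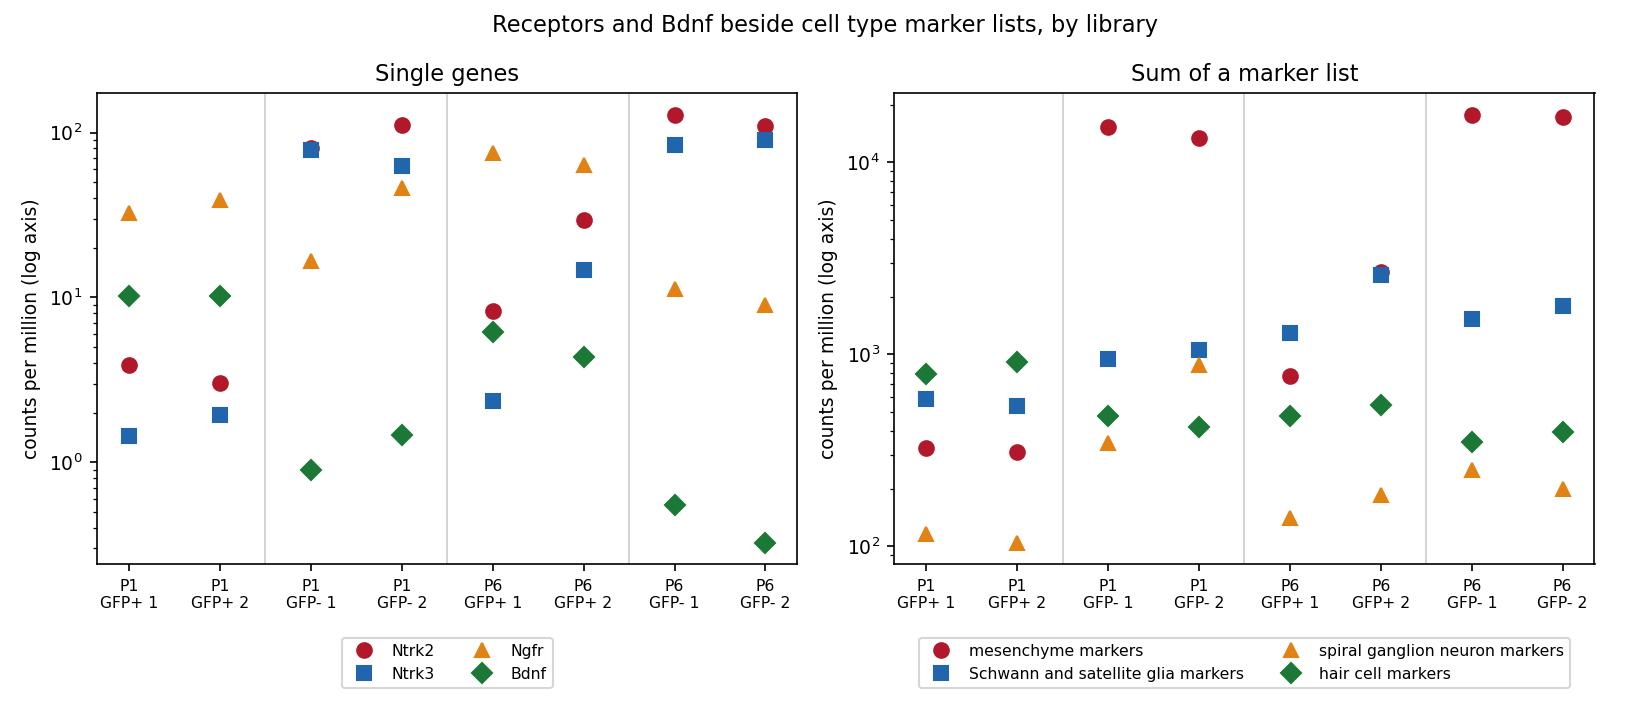
Levels of *Ntrk2*, *Ntrk3*, *Ngfr* and *Bdnf* (left) and summed levels of 4 cell type marker lists (right) in each library, in CPM on log axes. Grey lines part the groups. P6 GFP+ replicate 2 exceeded replicate 1 in *Ntrk2*, *Ntrk3* and every marker sum shown, but not in *Ngfr* or *Bdnf*. P1 GFP- replicate 2 exceeded replicate 1 in *Ntrk2*, *Ngfr*, *Bdnf* and the neuron and glia sums. It lay below replicate 1 in *Ntrk3* and the mesenchyme and hair cell sums.

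*Ngfr* (ENSMUSG00000000120, chr11:95430132-95449049, minus strand), whose protein marks inner pillar cells in the organ of Corti, had no clear side of the sort at P1 and was higher in GFP+ cells at P6. At P1 it measured 32.4 and 38.8 CPM in GFP+ and 16.7 and 46.0 CPM in GFP- libraries. At P6 it measured 75.2 and 63.5 CPM in GFP+ and 11.3 and 9.0 CPM in GFP- libraries. The fractions overlapped at P1 and were well apart at P6. The log2 difference was 0.28 (SE 0.43, adjusted p = 0.613) at P1 and 2.77 (SE 0.21, adjusted p = 0.0012), or 6.81-fold, at P6. The value at P1 turned on the GFP- replicates: it was 1.18 without P1 GFP- replicate 2 and -0.30 without replicate 1. The replicate with more *Ngfr*, replicate 2, was the one with more neuron markers. It also held more supporting cell markers, at 398.0 against 264.3 CPM. The part of neuron or supporting cell RNA in the level of *Ngfr* was not tested.

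Between P1 and P6 *Ngfr* differed by 1.06 on the log2 scale in GFP+ cells (SE 0.16, adjusted p = 0.0145) and by -1.43 in GFP- cells (SE 0.43, adjusted p = 0.0588). The GFP- value was -2.0 without P1 GFP- replicate 1 and -0.54 without P1 GFP- replicate 2. Markers of other cells were also higher in P6 than in P1 GFP+ libraries. The Schwann and satellite glia markers summed to 584 and 535 CPM in P1 and 1299 and 2605 CPM in P6 GFP+ libraries. Their list median was 2.30 on the log2 scale with 0 of 10 genes called, where 4.81% of all genes were called. Mesenchyme markers had a median of 2.05 with 0 of 7 called, endothelium 2.41 with 0 of 4 and macrophages 2.01 with 0 of 4. Melanocyte markers had 3.47 with 1 of 4 called higher, and neuron markers 0.70 with 1 of 10. Hair cell markers went the other way, at -0.66 with 2 of 10 called lower. Between P6 GFP+ replicates 1 and 2, *Ngfr* was 75.2 and 63.5 CPM while the glia sum was 1299 and 2605 CPM. In GFP- cells the glia sum was 949 and 1057 CPM at P1 and 1528 and 1785 CPM at P6, while *Ngfr* was lower at P6. The part of these cells in the level of *Ngfr* was not tested. The ratio of GFP+ to GFP- cells differed between the ages by 2.47 (SE 0.57, adjusted p = 0.0440), the smallest adjusted p of the 7 genes for this interaction, which called 1.93% of 19233 genes and 0 members. It was 3.06 without P1 GFP- replicate 1, past the threshold with the lone P1 GFP- library assumed to vary like the other groups, and 1.64 without P1 GFP- replicate 2. At an unadjusted p below 0.05 there were 4 members, where 21.2% of genes reached this level. DESeq2 called 1 member, *Ngfr*, and it also called more of all genes than edgeR did.

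*Sort1* (ENSMUSG00000068747, chr3:108087009-108164429, plus strand) did not follow the sort. Its levels were 234 and 227 CPM in P1 GFP+, 223 and 226 CPM in P1 GFP-, 184 and 255 CPM in P6 GFP+, and 248 and 233 CPM in P6 GFP- libraries. The log2 difference between fractions was 0.14 (SE 0.09, adjusted p = 0.219) at P1 and -0.14 (SE 0.21, adjusted p = 0.633) at P6. An antisense gene, *Gm12523*, overlaps 4.35% of its exon bases, and reads of the pair cannot be told apart without strand.

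**Figure D3:**
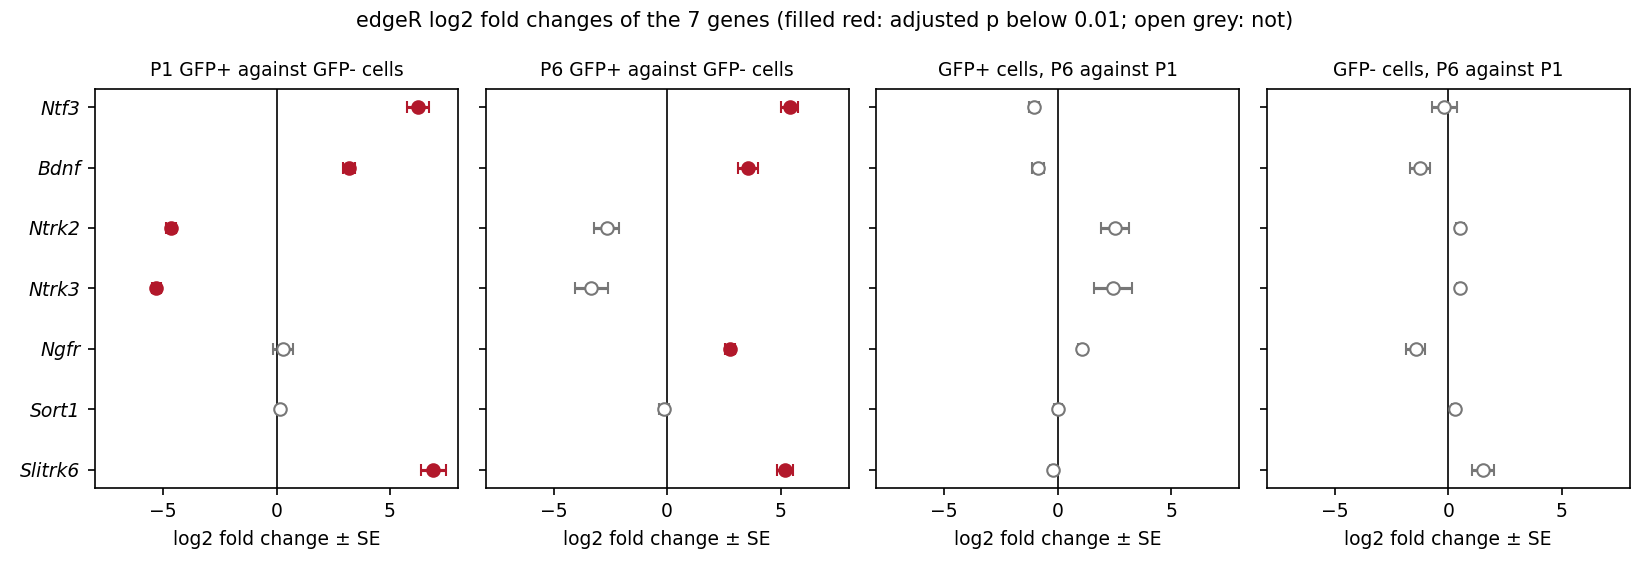
Log2 fold change of each gene in 4 comparisons, with bars of 1 SE from edgeR. Filled red points have an adjusted p below 0.01 and open grey points do not. The filled points are 5 genes at P1, 4 genes at P6 and none between the ages.

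Between P1 and P6 no member passed the threshold in GFP+ cells, where 4.81% of 17213 genes were called, or in GFP- cells, where 7.38% of 18920 genes were. At an unadjusted p below 0.05 there were 5 members in GFP+ and 6 in GFP- cells, where 38.2% and 34.5% of all genes reached this level. In GFP+ cells the difference of P6 from P1 was -1.05 on the log2 scale for *Ntf3* (SE 0.23, adjusted p = 0.0366) and -0.87 for *Bdnf* (SE 0.27, adjusted p = 0.0766). *Slitrk6* differed by -0.19 (SE 0.16, adjusted p = 0.417). *Ntrk2* and *Ntrk3* differed by 2.54 (SE 0.61, adjusted p = 0.0435) and 2.44 (SE 0.83, adjusted p = 0.0969). Without P6 GFP+ replicate 2, which held more mesenchyme, glia and endothelium marker RNA than replicate 1, these values were 1.37 and 0.64. Over the fits without 1 library they ranged from 1.37 to 3.14 for *Ntrk2* and from 0.64 to 3.22 for *Ntrk3*. *Sort1* differed by 0.01 (SE 0.18, adjusted p = 0.963), a difference that turned negative under library totals. DESeq2 called 4 members here, *Ntf3*, *Ntrk2*, *Ntrk3* and *Ngfr*, and it also called more of all genes than edgeR did.

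In GFP- cells the age differences of *Slitrk6* (log2 1.52, SE 0.47, adjusted p = 0.0667) and *Bdnf* (-1.25, SE 0.45, adjusted p = 0.0993) were larger than those of *Ntrk2* and *Ntrk3*, each of which was 0.51 (SE 0.17 and 0.13, adjusted p = 0.0813 and 0.0411). *Ntf3* differed by -0.17 (SE 0.57, adjusted p = 0.866) and *Sort1* by 0.29 (SE 0.11, adjusted p = 0.115). TMM moved the median of all genes by 0.19 relative to library totals here, and by 0.10 in the comparison of fractions at P1. On library totals the differences were 0.32 for each Trk gene and 0.10 for *Sort1*. DESeq2 called 0 members in GFP- cells. The log2 difference of *Slitrk6* was 0.94 without P1 GFP- replicate 1 and 2.49 without P1 GFP- replicate 2.

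Ranked by RPKM, GFP+ cells had *Slitrk6* (269 ± 17.5 at P1 and 221 ± 1.75 at P6, mean ± SD, n = 2) above *Ntf3* (113 ± 13.4 and 51.1 ± 13.5), *Sort1* (30.5 ± 0.648 and 29.0 ± 6.66) and *Ngfr* (10.3 ± 1.33 and 20.1 ± 2.40). The replicates of each of these neighbours were apart. *Bdnf* at 1.74 ± 0.0031, *Ntrk3* at 0.321 ± 0.0659 and *Ntrk2* at 0.228 ± 0.0398 closed the order at P1, while at P6 these 3 genes overlapped, between 0.451 and 2.80 RPKM. In GFP- cells *Sort1* led at both ages, with 29.7 ± 0.298 and 31.8 ± 1.43 RPKM, followed by *Ntrk3* with 13.4 ± 2.13 and 16.7 ± 0.758. *Ngfr* overlapped both Trk genes at P1 but lay below them at P6, and *Bdnf* was last at both ages. The RPKM ratio of *Ntf3* to its receptor gene *Ntrk3* was 444.7 and 280.4 in P1 GFP+ and 135 and 14.8 in P6 GFP+ libraries. In GFP- libraries it was 0.0460 and 0.198 at P1 and 0.0930 and 0.0524 at P6. The ratio was thus above 1 in every GFP+ and below 1 in every GFP- library, and the P6 GFP+ replicates were far apart. With the median length of coding transcripts the GFP+ ratios were 249 and 157 at P1 and 75.3 and 8.30 at P6.

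**Figure D4:**
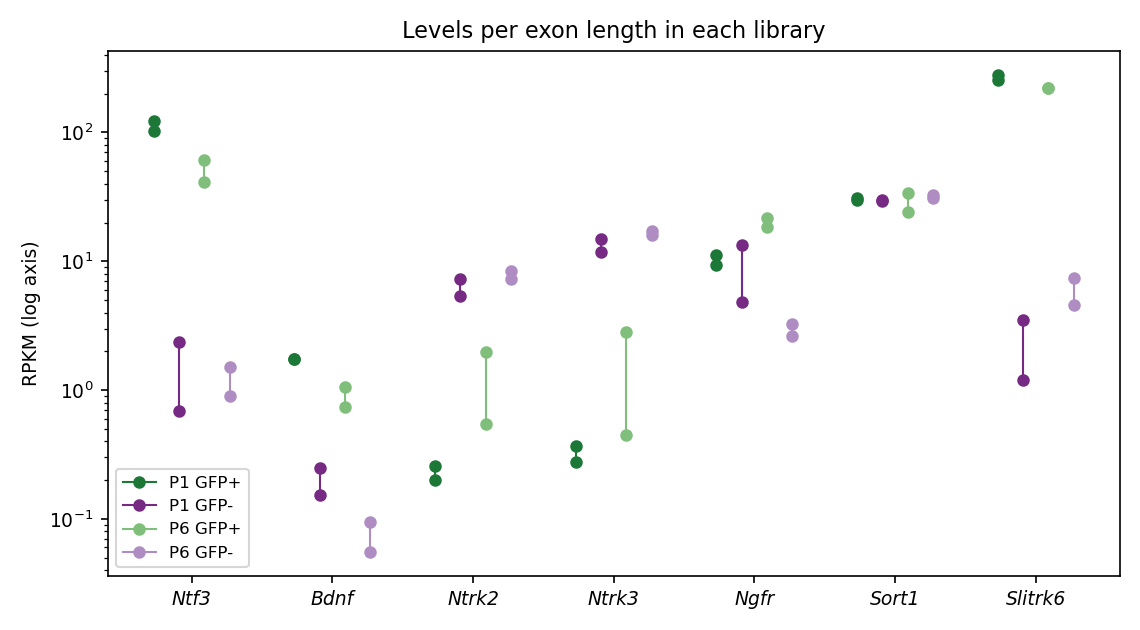
Level per exon length (RPKM, log axis) of the 7 genes. Joined points are the 2 libraries of a group. *Slitrk6* and *Ntf3* led in the GFP+ groups and *Sort1* in the GFP- groups, and only *Sort1* kept a like level in all 4.

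Other genes of the pathway, from lists that hold none of the 7 genes, were compared in the same fits. *Ntf5*, which encodes the other TrkB ligand NT-4/5, stayed between 0.362 and 1.44 CPM.

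Among the sortilin relatives, *Sorl1* rose most in GFP+ cells, from 104 and 106 CPM at P1 to 563 and 700.3 CPM at P6 (log2 2.68, SE 0.16, adjusted p = 0.0024). Its excess over GFP- cells was 1.22 at P1 (adjusted p = 1.2e-04) and 3.08 at P6 (adjusted p = 9.6e-04), and this difference between the ages was itself called (1.84, SE 0.20, adjusted p = 0.0028). *Sorcs3* had the distribution of the Trk genes, with 2.31 and 2.09 CPM in P1 GFP+ against 63.7 and 51.2 CPM in P1 GFP- cells (log2 -4.59, adjusted p = 1.8e-05).

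Of the 5 other Slitrk genes, which encode synaptic adhesion proteins, *Slitrk4* was higher in GFP+ cells at both ages, with 21.5 and 24.5 against 2.30 and 4.94 CPM at P1 (log2 2.75, adjusted p = 0.0012) and 19.5 and 24.2 against 1.39 and 1.11 CPM at P6 (log2 4.12, adjusted p = 8.9e-04). *Slitrk1* went from 0.502 and 0.603 CPM in P1 GFP+ cells to 4.39 and 4.72 CPM in P6 GFP+ cells (log2 3.14, adjusted p = 0.0052). It was lower in GFP+ than in GFP- cells at P1 (-2.79, adjusted p = 0.0061) and differed by 1.36 at P6 (adjusted p = 0.0190), and the interaction was called (4.14, adjusted p = 0.0099). Per length none of the 5 approached *Slitrk6* in GFP+ cells, the highest level being 11.3 RPKM, of *Slitrk3* in P6 GFP+ replicate 2, against 219.7 to 281 RPKM of *Slitrk6*. Of the receptor-type phosphatases that Slitrk proteins bind, *Ptprd* and *Ptprs* were lower in GFP+ cells at P1 (log2 -1.90 and -1.26, adjusted p = 5.6e-05 and 1.7e-04) and *Ptprf* was higher (1.39, adjusted p = 0.0013), while at P6 the differences were -2.23, -1.48 and 1.13, with the fractions apart but adjusted p of 0.0122, 0.0119 and 0.0168, short of the threshold.

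Downstream of the Trk receptors, 21 adaptor genes gave 3 higher and 5 lower in GFP+ cells at P1, where 16.6% of all genes were higher and 20.7% lower, with a list median of -0.04 against 0.01 for all genes. At P6 there were 2 higher and 2 lower, where 7.72% and 5.19% of all genes were called. *Shc4* measured 271 and 287 CPM in P1 GFP+ and 30.8 and 32.7 CPM in P1 GFP- cells (log2 3.24, adjusted p = 1.0e-05), and 2.40 (adjusted p = 9.7e-04) was its log2 excess at P6. *Shc3* measured 28.4 and 34.3 CPM in P1 GFP+ cells and fell to 0.844 and 2.14 CPM at P6 (log2 -4.24, SE 0.41, adjusted p = 0.0049).

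Of 13 partners of p75NTR, 4 were lower and none higher in GFP+ cells at P1, where 20.7% of all genes were lower, and 2 were lower at P6, where 5.19% were. The list median was -0.12 at both ages, against 0.01 at P1 and -0.02 at P6 for all genes. *Lingo1*, the p75NTR co-receptor for myelin inhibitors, was the one past 4-fold at P1, with 1.90 and 2.61 against 35.5 and 45.9 CPM (log2 -4.09, adjusted p = 4.2e-05). *Tnfrsf19* (TROY) passed that fold at P6 (log2 -2.19, adjusted p = 0.0062). Of 9 genes for cleaving and sorting proneurotrophins, 7 could be tested, *Mmp3* and *Mmp7* being at 0 in every library. Of the 7, P1 had 3 and P6 had 2 that were lower in GFP+ cells, beside the same 20.7% and 5.19% of all genes, with medians of -0.13 and -0.95. *Mmp9*, which encodes an extracellular proneurotrophin protease, had 0.305 and 0.241 CPM in P1 GFP+ and 7.49 and 9.16 CPM in P1 GFP- cells (log2 -4.77, adjusted p = 7.1e-05).

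**Figure D5:**
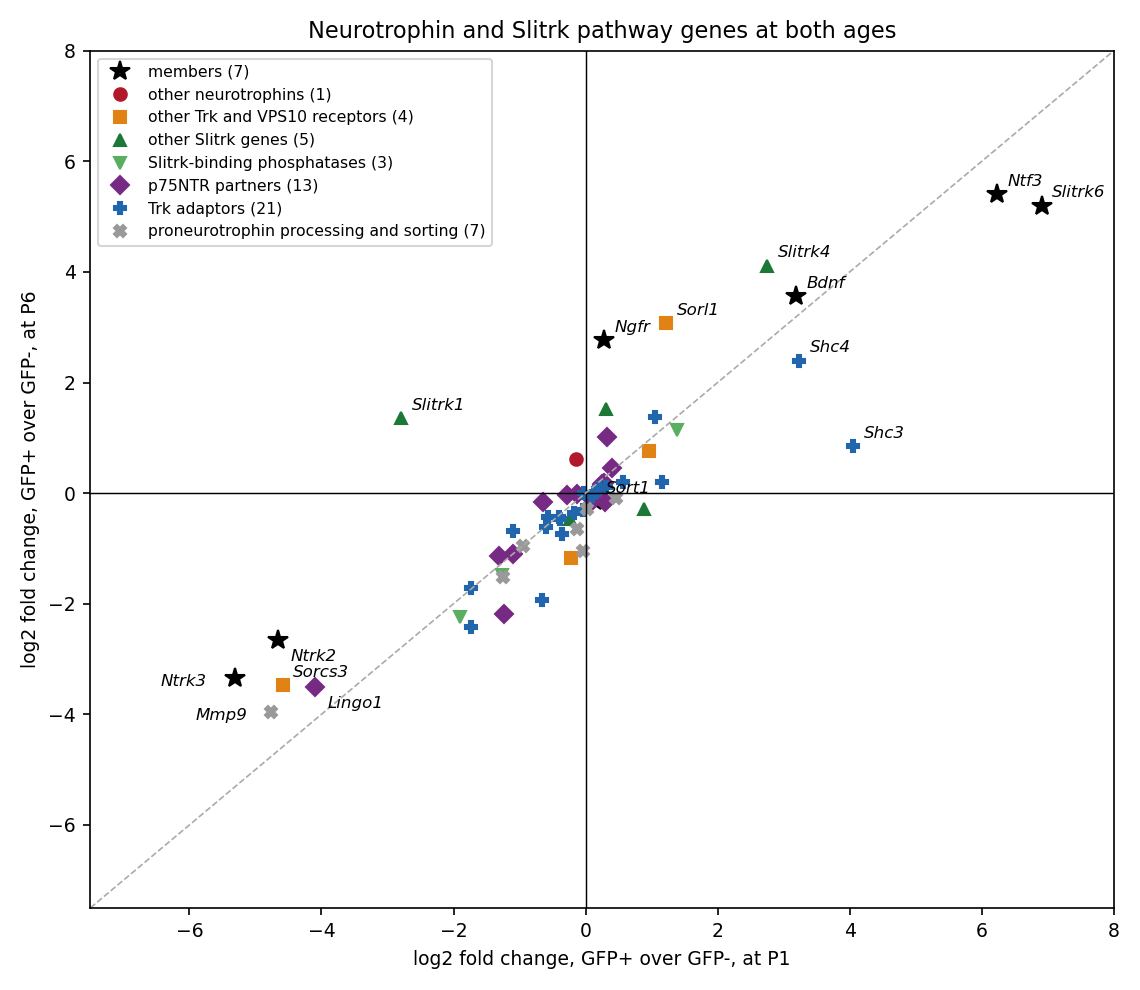
Log2 fold change of GFP+ over GFP- cells at P1 (x axis) and P6 (y axis) for the 7 genes (stars) and 7 lists of related genes, for genes tested at both ages. The dashed line marks equal values. *Ntf3*, *Bdnf*, *Slitrk6*, *Slitrk4* and *Shc4* lie high on both axes, *Ntrk2*, *Ntrk3*, *Sorcs3*, *Lingo1* and *Mmp9* low on both, and *Ngfr* and *Sorl1* lie further up than right.

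The profile of each gene over the 8 libraries was set against 16006 protein-coding genes by the Euclidean distance of centred log2(CPM + 0.5) values. The nearest to *Ntf3* was *Fgf3* (Pearson r = 0.996), with 82.3 and 74.5 CPM in P1 GFP+, 33.4 and 24.2 CPM in P6 GFP+ and at most 0.650 CPM in GFP- libraries, followed by *Slc27a2* and *Emx2*. *Slitrk6* was nearest to *Slc6a14* (r = 0.993), *Fgfr3* and *Lfng*. The nearest to *Bdnf* were *Grtp1* (r = 0.996), *Gstm6* and *Ttc24*. *Ntrk2* was nearest to *Mfap4* (r = 0.997), *Ets1* and *Foxc2*, and *Ntrk3* to *Abca9* (r = 0.997), *Naalad2* and *Svep1*. *Ngfr* was nearest to *Lypd6b* (r = 0.986), which had 7.0 and 19.1 CPM in P1 GFP- cells, *5430405G05Rik* and *Snrpn*. *Sort1*, with almost no variation to match, was nearest to *Ide* (r = 0.898) and *Gm8181*. The 8 libraries share their sort and age in pairs, so these values describe the profiles only.

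Leaving out P6 GFP- replicate 2 took the adjusted p of *Ntf3* and *Slitrk6* at P6 to 0.0124, of *Ngfr* to 0.0189 and of *Bdnf* to 0.0393, with log2 differences of 5.07, 4.88, 2.60 and 3.22. In this edgeR fit 0 of 18019 genes were called, while 5144 genes and 6 members had an unadjusted p below 0.05. Leaving out P6 GFP- replicate 1 raised *Bdnf* alone above the threshold, to 0.0194. Directions held in all of these fits. At P1 the 5 calls held without any 1 library.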

How the data were processed

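Per the labels and methods, the authors sequenced mRNA-enriched cDNA as paired ends, aligned the reads with TopHat to mm9 (NCBIM37) and deposited raw counts per Ensembl gene, with no normalization. The counting mode and its use of strand are not given in the sources used here. Counts on genes made up 64.7% to 76.2% of those listed, and counts on no gene, on several genes or at several places were left out of totals and tests.

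The NCBIM37 annotation gave symbols for 34391 of 36536 genes, with positions and exon lengths. Each comparison was fitted on its 4 libraries, and the interaction on all 8, with edgeR 4.0.16 in R 4.3.3 (filterByExpr with minimum count 10 and total 15, TMM, quasi-likelihood test, Benjamini-Hochberg). Calls needed an adjusted p below 0.01. List genes past 4-fold were named, at most 3 per list and comparison. DESeq2 1.42.0, library totals or DESeq2 size factors, no filter, a joint fit, a replicate block and leaving out each library were alternatives. A crossed block and another gene length were added after the data were seen. Scripts were tested on simulated data. Some genes of the lists and profiles are not reported here. The 7 genes and the lists were chosen with earlier results of these data known. Python 3.11.15 and matplotlib 3.10.9 were used for tables and plots. With 17769024 to 67695039 gene counts a library, levels under 1 CPM rest on few counts.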

Additional observations from a re-analysis of the deposited data

Results flagged for a closer look

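For *Ngfr*, both P6 GFP+ libraries lay above both P1 GFP+ libraries and both P6 GFP- libraries below both P1 GFP- libraries, opposite directions in the 2 fractions. The difference between these changes was 2.47 on the log2 scale (edgeR interaction, adjusted p = 0.0440). For *Slitrk6* the directions were the other way round, with a difference of -1.74 (adjusted p = 0.149). Neither passed the threshold of 0.01. With 2 libraries a group, groups often do not overlap: between the fractions they did not for 79.3% of genes at P1 and 73.4% at P6. The share of all genes apart between the ages is not given here. Leaving out P1 GFP- replicate 1 gave an interaction of 3.06 for *Ngfr* and -1.14 for *Slitrk6*. Leaving out P1 GFP- replicate 2 gave 1.64 and -2.64.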

How the results depend on the processing

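At P1, 5 members were called under every other setting and 5 to 6 without 1 library. At P6, 4 members were called on DESeq2 size factors or library totals and 6 without a low-count filter, with DESeq2, with all 8 libraries in the fit and with a replicate block. Without 1 library the P6 count ranged from 0, without GFP- replicate 2, to 6. In GFP+ cells between the ages, 0 members became 4 without a filter and with DESeq2, 1 with all 8 libraries, 1 with the replicate block and 1 with the crossed block, with 0 to 5 without 1 library. In GFP- cells 0 became 4 without a filter and 4 with the crossed block, with 0 to 3 without 1 library. In the interaction 0 became 4 without a filter and 1 with DESeq2, with 0 to 2 without 1 library. The cause was not tested. Calls over all genes, given below, also moved under several of these settings, so the counts do not single out the members.

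*Ngfr* at P1 reversed to -0.30 without P1 GFP- replicate 1 (range without 1 library -0.30 to 1.18), and *Sort1* at P6 to 0.11 without P6 GFP+ replicate 1 (-0.37 to 0.11). *Sort1* between the ages in GFP+ cells reversed to -0.073 on library totals, -0.0056 without a filter, -6.0e-04 with the replicate block, -2.8e-04 with the crossed block, -0.03 without P1 GFP+ replicate 2 and -0.21 without P6 GFP+ replicate 2 (range without 1 library -0.21 to 0.21). *Ntf3* between the ages in GFP- cells reversed to 0.012 with the replicate block, 0.0060 with the crossed block, 0.98 without P1 GFP- replicate 2 and 0.19 without P6 GFP- replicate 2 (-0.79 to 0.98). *Bdnf* in the interaction reversed to -0.013 without P6 GFP- replicate 2 (-0.013 to 0.81).

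Over all genes, the 2363 calls at P6 became 5309 without a filter, 4891 with DESeq2 and 5157 with all 8 libraries, and 0 to 7765 without 1 library. The 828 calls between the ages in GFP+ cells became 4090, 3037 and 2361 under the same settings, and the 1397 in GFP- cells became 3993, 3043 and 769. The 372 of the interaction became 2400 without a filter, 1422 with DESeq2 and 151 with the replicate block. The 6972 at P1 fell to 3675 without P1 GFP+ replicate 1.

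Replicate numbers shared no sign of pairing between fractions, with correlations of replicate differences of 0.0303 at P1 and 0.0621 at P6. Between the ages they were -0.129 in GFP+ and -0.321 in GFP- cells, and the crossed block was therefore added after the data were seen. With 2 libraries a group, small differences were not detectable.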

Other observations

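*Slitrk3* was higher in GFP+ cells at P6 (34.2 and 42.0 against 13.7 and 12.7 CPM, log2 1.52, edgeR adjusted p = 0.0038) and *Slitrk2* at P1 (28.3 and 32.8 against 17.4 and 18.2 CPM, log2 0.88, adjusted p = 0.0014). *Slitrk5* was at most 8.11 CPM in any library and was called in neither comparison of fractions (log2 -0.23 and -0.47, adjusted p = 0.389 and 0.344). *Sorcs1* was higher in GFP+ cells at P1 (107 and 105 against 60.3 and 56.0 CPM, log2 0.96, adjusted p = 3.4e-04), and *Sorcs2* was lower in GFP+ cells at P6 (69.6 and 92.8 against 182 and 184 CPM, log2 -1.18, adjusted p = 0.0084).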
